A study of Mus musculus with 43 samples.

Results

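The genes described are the 174 protein-coding genes with symbols that start with Zfp on mouse chromosomes 7, 13 and 17, out of 397 Zfp genes and 21951 protein-coding genes in the GENCODE M21 annotation of mm10. Chromosome 7 holds 92 of them, chromosome 13 holds 36 and chromosome 17 holds 46. They were chosen by name and position alone, and the 3743 other protein-coding genes of the same chromosomes served as the comparison. Chromatin immunoprecipitation and sequencing (ChIP-seq) of Setdb1, H3K9me3, H3K9me2 and H3K27me3 was carried out in embryonic fibroblasts from E13.5 embryos of 129/C57 dams and CAST sires. Every culture had been transduced with a retroviral short hairpin and selected with puromycin. The female cells were Setdb1+/+ Xist∆A/+ with the Nonsilencing hairpin, the Setdb1-depleted cells were female Setdb1+/gt Xist∆A/+ with shSetdb1, and the male cells were Setdb1+/+ X/Y with the Nonsilencing hairpin. The depleted cells therefore kept 1 Setdb1 allele without the gene trap, and hairpin and genotype cannot be told apart. The extraction text names NSCs where the titles name MEFs. H3K27me3 peaks covered part of the neural genes Pax6, Sox2, Sox1 and Olig2, but not of Nes, and of 0 of 10 fibroblast genes in all 3 cell groups.

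Each mark and cell group was deposited as 1 peak list called on pooled libraries, 3 libraries for female and male cells and 2 for Setdb1-depleted cells. There is no replicate error, so no difference was tested, and the exact Clopper-Pearson 95% intervals cover counting error only and treat neighbouring genes as independent although they share peaks. The female list was the longest for each histone mark. On the 3 chromosomes H3K9me3 had 1089 female, 775 depleted and 953 male peaks, H3K9me2 had 240, 167 and 204, and H3K27me3 had 1169, 1002 and 1059. Setdb1 had 175, 55 and 470 peaks there, and the male list was the longest although its pool of 16482475 reads was smaller than the female pool of 57400561 and the depleted pool of 22386381. The header of the depleted Setdb1 list names the Nonsilencing hairpin, against the labels.

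Most Zfp genes encode C2H2 zinc finger proteins, which bind DNA through arrays of short zinc-coordinating modules joined by a conserved linker. Many also carry a KRAB domain, which recruits Trim28 (KAP1) and through it the H3K9 methyltransferase Setdb1 to sites such as retroelements. Many of these genes arose by tandem duplication and lie in clusters of close relatives, and their finger-coding last exons are known targets of H3K9me3 in several cell types. Of the 174 genes, 166 had at least 3 C2H2 patterns in their translated coding sequence, with a median of 11, and 124 (71.3%) had a KRAB pattern, against 21 (0.561%) of the other genes.

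Setdb1 peaks near Zfp genes came mostly from the male list. Of its 27, 10 lay in coding exons, a share that is not given here for other male peaks. The sequences of 5 of those peaks are shown because they carry the finger repeat itself, with a further intergenic peak beside Zfp40 for contrast. Each is read from GRCm38 on the strand of its gene, and capitals mark the codons of the canonical linker between fingers, with any base allowed where the genetic code is free. The Zfp30, Zfp787, Zfp942 and Zfp976 peaks are whole (chr7:29792915-29793179 on the plus strand, and chr7:6132696-6132987, chr17:21928523-21928736 and chr7:42612926-42613033 on the minus strand). For Zfp850 the 300 bases around the summit are given (chr7:27989189-27989488, minus strand), and the Zfp40 peak is chr17:23193421-23193530 on the minus strand.
Zfp30: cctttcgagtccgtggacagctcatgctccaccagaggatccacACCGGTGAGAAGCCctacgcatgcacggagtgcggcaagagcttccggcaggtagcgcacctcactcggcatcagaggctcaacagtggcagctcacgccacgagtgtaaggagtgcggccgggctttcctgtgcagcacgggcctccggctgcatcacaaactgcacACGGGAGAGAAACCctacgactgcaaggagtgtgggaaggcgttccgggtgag
Zfp787: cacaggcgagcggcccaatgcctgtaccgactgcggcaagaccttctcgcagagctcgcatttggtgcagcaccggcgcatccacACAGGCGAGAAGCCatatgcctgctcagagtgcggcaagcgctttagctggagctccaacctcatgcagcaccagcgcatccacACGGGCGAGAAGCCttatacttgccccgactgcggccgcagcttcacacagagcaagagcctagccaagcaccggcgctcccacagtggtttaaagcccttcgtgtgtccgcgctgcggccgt
Zfp850: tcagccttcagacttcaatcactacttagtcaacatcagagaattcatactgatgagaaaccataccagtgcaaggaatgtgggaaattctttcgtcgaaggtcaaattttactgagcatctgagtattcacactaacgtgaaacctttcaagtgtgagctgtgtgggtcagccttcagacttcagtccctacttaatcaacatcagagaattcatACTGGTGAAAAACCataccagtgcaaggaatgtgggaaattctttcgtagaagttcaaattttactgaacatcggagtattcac
Zfp942: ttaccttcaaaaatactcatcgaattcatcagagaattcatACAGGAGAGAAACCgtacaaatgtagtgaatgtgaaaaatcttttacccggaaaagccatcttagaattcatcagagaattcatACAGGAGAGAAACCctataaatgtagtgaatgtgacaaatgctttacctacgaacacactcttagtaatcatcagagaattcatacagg
Zfp976: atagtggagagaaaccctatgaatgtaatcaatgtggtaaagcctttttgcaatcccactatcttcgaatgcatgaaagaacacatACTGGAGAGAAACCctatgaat
Zfp40: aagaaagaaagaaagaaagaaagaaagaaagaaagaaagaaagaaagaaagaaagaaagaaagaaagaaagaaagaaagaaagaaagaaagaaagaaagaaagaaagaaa
The coding peaks repeat the finger unit with 1 or 2 exact linker matches each, and the Zfp40 peak is a simple tetranucleotide repeat with none. On either strand the motif occurred in 16 of the 27 male peaks near Zfp genes (59.3%) and in 26 of the other 443 male peaks of these chromosomes (5.87%). In whole gene bodies it occurred in 145 of 174 Zfp genes (83.3%), with 949 of 963 matches on the gene's own strand, and in 134 of 3743 other genes (3.58%).

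Over all 174 gene bodies, more Zfp genes were touched by H3K9me3 than by H3K27me3 in female and male cells, and nearly as many by each in depleted cells. This order did not hold within 5 kb of the start in female and depleted cells, where H3K27me3 touched 17.2% and 15.5% and H3K9me3 15.5% and 6.32%. It did not hold either among the 83 Zfp genes that are mostly single copy (at least 90% of sampled 32-base words occurring once in the genome), where H3K27me3 touched 12%, 13.3% and 15.7% in female, depleted and male cells and H3K9me3 7.23%, 2.41% and 4.82%. In female cells 38 of 174 genes (21.8%, interval 15.9 to 28.7) had part of the body inside an H3K9me3 peak, against 9.35% of the other genes. In Setdb1-depleted cells the number was 21 (12.1%, 7.63 to 17.9) against 6.95%, and in male cells it was 36 (20.7%, 14.9 to 27.5) against 7.99%. Measured by sequence, 18.6%, 11.6% and 19.2% of Zfp body bases were covered in female, depleted and male cells, against 3.05%, 2.22% and 2.65% of the other genes' bases. The median Zfp gene was not covered in any list, and among the genes that were touched the median covered share was 69.8%, 46.5% and 74.2%.

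**Figure D1:**
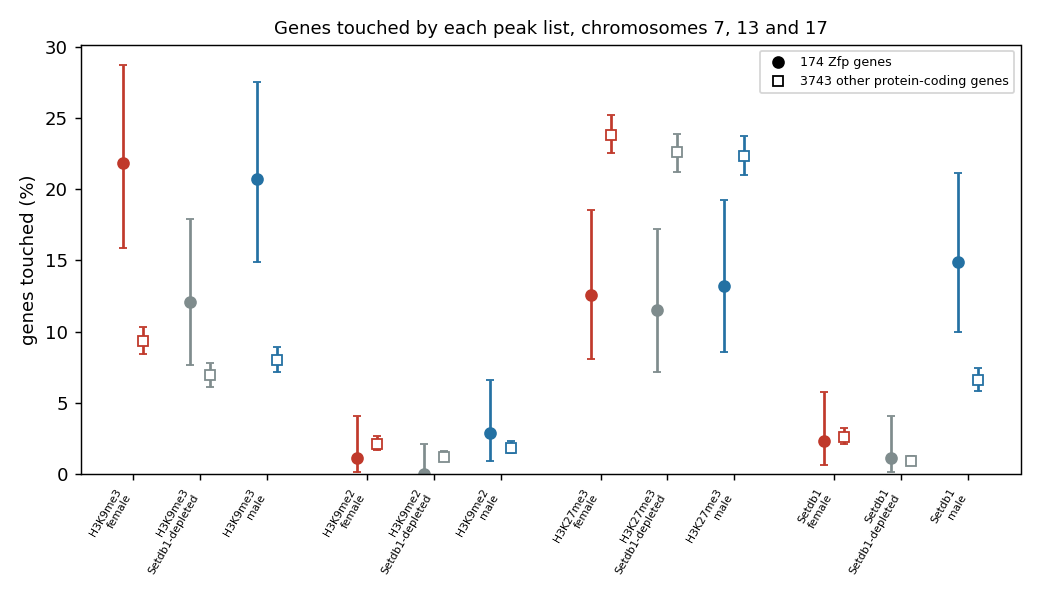
Percent of genes touched by each peak list (y axis), for the 174 Zfp genes (filled circles) and 3743 other protein-coding genes (open squares) of chromosomes 7, 13 and 17; touched means any base of the body covered for histone marks and a peak within 10 kb for Setdb1, and bars are exact 95% intervals for counting error. H3K9me3 touched 21.8%, 12.1% and 20.7% of Zfp genes in female, Setdb1-depleted and male cells, and H3K27me3 touched fewer Zfp genes than other genes in all 3.

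Repeated sequence went together with this coverage. The share of 32-base words sampled from the gene body that occur once in the genome had a median of 89.3% in Zfp genes and 93.5% in other genes. Of the 83 Zfp genes with at least 90% single-copy words, 6 (7.23%) were touched by H3K9me3 in female cells, 2 (2.41%) in depleted cells and 4 (4.82%) in male cells, against 3.33%, 2.42% and 3.2% of other genes of that kind. Of the 91 Zfp genes below 90%, 32 (35.2%), 19 (20.9%) and 32 (35.2%) were touched, against 20.6%, 15.4% and 16.9% of other genes. The part that read placement in repeated sequence has in these values was not tested.

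**Figure D2:**
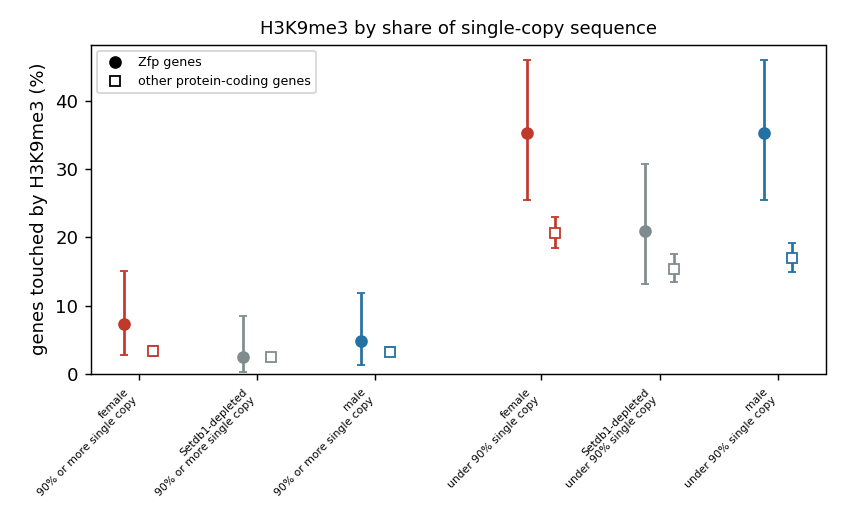
Percent of genes touched by H3K9me3 (y axis) in the 3 cell groups, split by whether at least 90% of sampled 32-base words of the body are single copy; filled circles are Zfp genes, open squares other protein-coding genes, and bars are exact 95% intervals for counting error. Touched genes were fewer among single-copy genes in both classes, and in depleted cells the single-copy Zfp genes (2.41%) and other genes (2.42%) lay together.

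Coverage differed by chromosome and by the KRAB pattern. On chromosome 7, 10 of 92 Zfp genes (10.9%) were touched by H3K9me3 in female cells against 10.3% of other genes, on chromosome 13 it was 11 of 36 (30.6%) against 10.1%, and on chromosome 17 it was 17 of 46 (37.0%) against 7.03%. Those of chromosome 7 were below its other genes in depleted cells (4.35% against 8.49%) and above them in male cells (12% against 8.75%), where 10.6% against 3.65% of body bases were covered. The intervals of 1.2 to 10.8 in depleted and 6.12 to 20.4 in male cells hold the shares of the other genes. Zfp936 alone had 67.109 kb of the 187282 Zfp bases covered in male cells on chromosome 7. On chromosomes 13 and 17 the Zfp genes were above the other genes in all 3 lists. Of the 124 genes with a KRAB pattern 34 (27.4%) were touched in female cells, 19 (15.3%) in depleted cells and 34 (27.4%) in male cells. Of the 50 without it, 4 (8.0%), 2 (4.0%) and 2 (4.0%) were touched. The median share of single-copy words was 85.7% with the pattern and 94.9% without it. By length, among genes of 10 to 30 kb 24.6% of 114 Zfp genes and 8.82% of 1077 other genes were touched in female cells, whereas among genes under 10 kb it was 1 of 37 Zfp genes (2.7%) and 6.56% of other genes. Other gene families of these chromosomes also carried the mark, with 17.3% of 312 olfactory receptor (Olfr) genes, 31.4% of 236 vomeronasal receptor (Vmn) genes and 22.2% of 63 other zinc finger genes touched in female cells.

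The covered genes were few and uneven in size. The bodies of Zfp935 and Zfp934 on chromosome 13 (chr13:62453715-62558511 and chr13:62479827-62571199) overlap by 78.7 kb, so their covered bases are counted in both. H3K9me3 covered 101.286 kb of Zfp935 in female cells, 81.286 kb in depleted cells and 99.797 kb in male cells. It covered 75.174 kb of Zfp934 in female cells, 70.0 kb in depleted cells and 91.373 kb in male cells. Both were covered in every cell group, and together they held 25.3% of all covered Zfp bases in female cells and 34.8% in depleted cells. Only 34.0% and 25.1% of their sampled words are single copy, and no C2H2 pattern was found in the translated coding sequence of Zfp935. Zfp81 on chromosome 17, picked after its values were seen, had 25.659 kb covered in all 3 lists. In all, 51 Zfp genes were touched in at least 1 list, 47 of them with a KRAB pattern, and 13 were touched in all 3. These are 29.3% and 7.47% of the Zfp genes, against 14.1% and 2.78% of other genes.

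**Figure D3:**
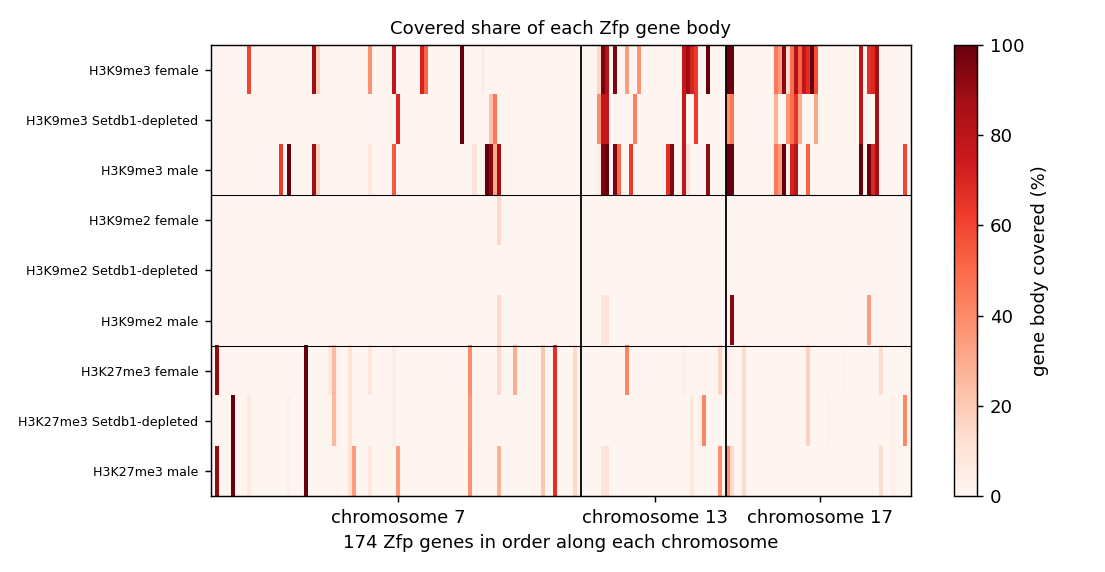
Covered share of each Zfp gene body (colour, 0 to 100%) by the 9 histone lists (rows) for the 174 genes in order along chromosomes 7, 13 and 17 (columns, black lines between chromosomes). H3K9me3 forms blocks of neighbouring genes on chromosomes 13 and 17, H3K9me2 is nearly empty, and H3K27me3 is scattered, mostly over small shares of a body.

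From female to Setdb1-depleted cells, H3K9me3 was lost from 21 of the 38 touched Zfp genes (55.3%) and appeared on 4. Among other genes 52.6% of those touched lost it, so the share of genes that lost all coverage was close to the background, and 94 other genes gained it. The covered bases went from 699 to 435 kb, a ratio of 0.623, against a ratio of 0.73 for other genes. Without the Olfr, Vmn and zinc finger genes the ratio of the other genes was also 0.623, and it was 0.616 for other zinc finger genes and 1.15 for Vmn genes. Over all Zfp genes the ratio was thus that of the other genes outside these families. It was 0.214 (68.4 to 14.6 kb) in Zfp genes with at least 90% single-copy words and 0.667 (630 to 420 kb) in those below. The ratio of other genes split this way is not given here. Without the overlapping genes Zfp934 and Zfp935, 14.6% of Zfp body bases were covered in female and 7.95% in depleted cells. Genes with at least 50% of the body covered went from 27 (15.5%) to 9 (5.17%) Zfp genes, and from 3.93% to 3.69% of other genes, with 27 (15.5%) against 3.26% in male cells. These other genes include the Olfr, Vmn and other zinc finger genes, and the share without those families is not given here. The 3 largest losses were in Zfp942, Zfp369 and Zfp180. Zfp942 had 33.041 kb covered in female, 0 in depleted and 35.505 kb in male cells. Zfp369 had 24.221 kb in female, 0 in depleted and 24.221 kb in male cells, and Zfp180 had 22.713 kb, 0 and 22.713 kb. In these 3 genes the female and male lists were close and the depleted list had no peak. The 3 largest gains went the other way. Zfp808 had 16.144 kb in female, 41.259 kb in depleted and 6.144 kb in male cells, Zfp943 had 15, 40.0 and 2.449 kb, and Zfp850 had 20.147 kb in depleted cells only. Over all Zfp genes covered bases were fewer in 30 and more in 6, and over other genes fewer in 234 and more in 128. The depleted lists pool fewer libraries and hold fewer peaks of every mark on these chromosomes, and the part of that in these differences was not tested.

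Female and male cells, both Setdb1+/+, shared 25 touched genes, which is 65.8% of the 38 female genes and 69.4% of the 36 male genes. For other genes these shares were 52.9% and 61.9%. Among Zfp genes with at least 90% single-copy words, 0 of the 6 female and 4 male genes were shared. Zfp936 on chromosome 7 set the 2 lists apart, with 0.772 kb covered in female, 0 in depleted and 67.109 kb in male cells. Zfp945 on chromosome 17 was the reverse, with 20.438 kb in female cells and 0 in the other lists. Zfp945 was picked after its values were seen. These differences lie between lists of cells with the same Setdb1 genotype.

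Along the gene, H3K9me3 was lowest at the start and highest at the end. At the centre of the first 5% of the body 3.45% of Zfp genes were covered in female cells, 1.72% in depleted cells and 6.9% in male cells. At the centre of the last 5% the values were 19%, 9.77% and 18.4%. The end of a C2H2 Zfp gene usually holds its finger exon. Of the 963 linker matches 29.4% lay in female H3K9me3 peaks, against 18.6% of all Zfp body bases. The corresponding values were 18.9% against 11.6% in depleted cells and 27.2% against 19.2% in male cells. Of the 410 matches in other genes 32.9% lay in female H3K9me3 peaks. H3K27me3 showed the opposite tilt, at 8.05% and 5.17% in female, 9.77% and 2.87% in depleted, and 7.47% and 5.17% in male cells. Other genes tilted the same way for H3K27me3, at 18.4% and 13.7% in female, 17.3% and 13.1% in depleted, and 16.9% and 13.2% in male cells. For H3K9me3 they had 4.11% and 4.73%, 3.53% and 4.14%, and 3.58% and 3.69%.

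**Figure D4:**
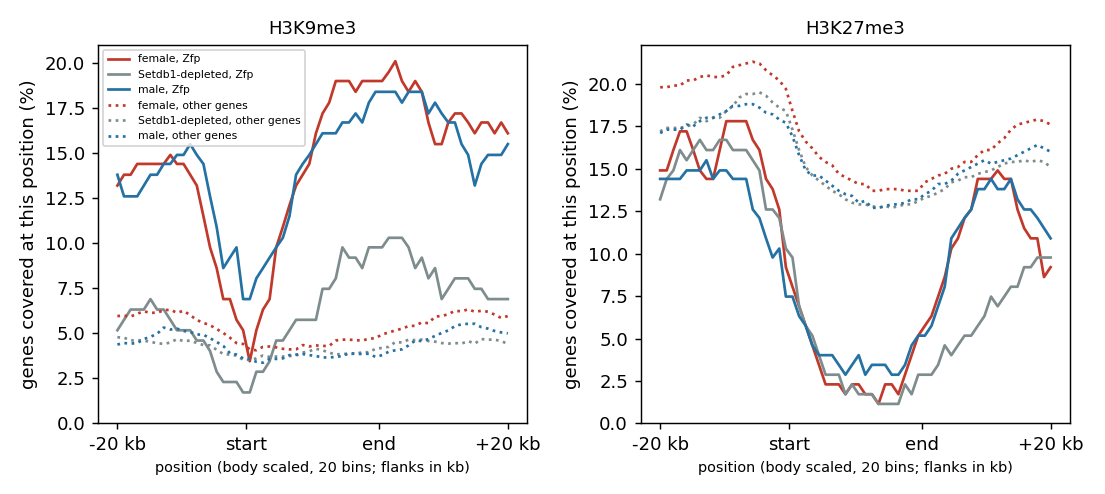
Percent of genes covered at each position (y axis) from 20 kb upstream, through the body scaled to 20 bins, to 20 kb downstream (x axis), for H3K9me3 and H3K27me3; solid lines are Zfp genes, dotted lines other protein-coding genes, and colours the cell groups. H3K9me3 dips at the start of Zfp genes, to 3.45% in female cells, and reaches 19% at the end.

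Runs of at least 3 Zfp genes with gaps of at most 200 kb formed 14 clusters with 127 of the genes. Genes in clusters were touched by H3K9me3 in female cells at 22.8% and the 47 outside at 19.1%. The longest cluster runs from Zfp677 to Zfp946 (chr17:21383748-22456689) with 18 Zfp genes, all with a KRAB pattern, and H3K9me3 covered 32.8% of its span in female, 18.6% in depleted and 32.3% in male cells. The cluster with the most genes, 23 from Zfp712 to Zfp273 (chr13:67038596-67827002), had 21.2%, 10.1% and 17.6% of its span covered. The cluster from Zfp871 to Zfp101 (chr17:32765496-33394641) had 22.3%, 11.9% and 23.0%. In these 3 clusters the depleted list covered the smallest share and the female and male lists lay close together. Over the whole of chromosome 13 H3K9me3 covered 5.7%, 3.57% and 4.78% in female, depleted and male cells. Over chromosome 17 it covered 6.04%, 4.23% and 5.28%, so the depleted list was the lowest chromosome-wide too. The remaining chromosome 17 cluster, Zfp119a to Zfp119b, had 0, 0 and 29.5% of its span covered. The chromosome 7 clusters did not share an order. Zfp180 to Zfp575 had 5.93%, 0 and 5.93% of its span covered, Zfp84 to Zfp146 had 16.1%, 6.17% and 0, and Zfp141 to Zfp975 had 5.3%, 22.8% and 47.9%. Zfp628 to Zfp580, Zfp658 to Zfp819 and Zfp553 to Zfp629 had no H3K9me3 peak in any list.

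**Figure D5:**
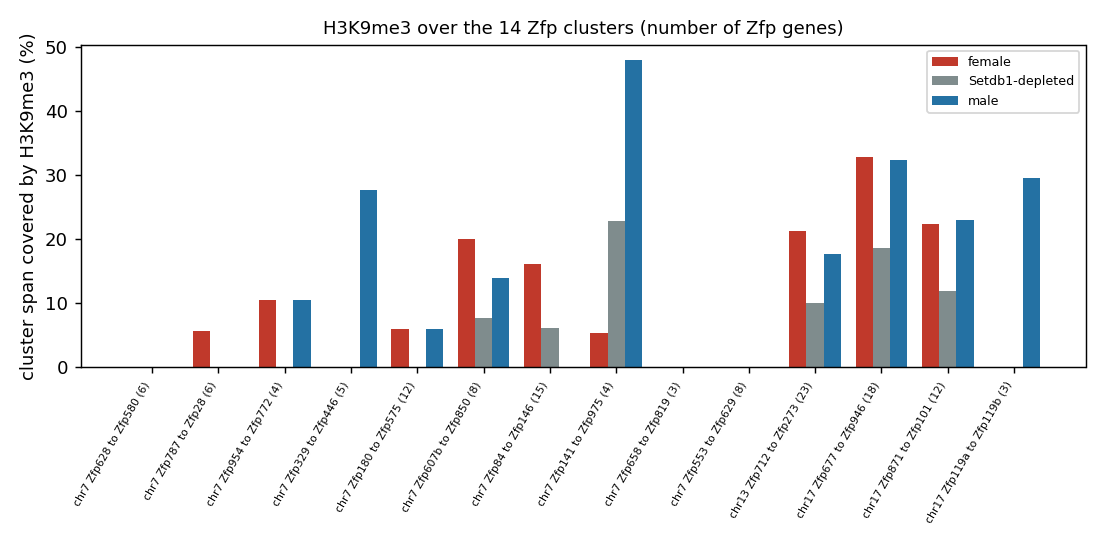
Percent of the span of each Zfp cluster covered by H3K9me3 peaks (y axis) in the 3 cell groups, with the number of Zfp genes after the first and last gene. The chromosome 13 cluster and the pair of large chromosome 17 clusters are lowest in depleted cells, while Zfp141 to Zfp975 is highest in male cells, at 47.9%.

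H3K27me3, the mark of Polycomb repression, covered Zfp genes less often than other genes. It touched 22 Zfp genes in female cells (12.6%, interval 8.1 to 18.5) against 23.8% of other genes, 20 in depleted cells (11.5%, 7.16 to 17.2) against 22.6%, and 23 in male cells (13.2%, 8.57 to 19.2) against 22.3%. At least 50% of the body was covered in 3, 3 and 4 Zfp genes (1.72%, 1.72% and 2.3%), against 14.1%, 12.8% and 13.1% of other genes. Zfp536, the longest of the genes, had 118.641 kb covered in female, 108.641 kb in depleted and 113.641 kb in male cells, and alone held 52.8%, 61.4% and 41.6% of the covered Zfp bases. H3K27me3 covered 5.97%, 4.7% and 7.26% of all Zfp body bases in female, depleted and male cells, and 3.06%, 1.97% and 4.61% without Zfp536. Zfp541 was covered over its whole 34.521 kb in all 3 lists. Zfp579 had 11.518 kb in female and male cells and 0 in depleted cells, and Zfp366 had 10.834 kb in female, 0 in depleted and 25.0 kb in male cells. The largest loss was in Zfp936, which has the KRAB pattern, with 12.109 kb in female, 0 in depleted and 22.109 kb in male cells. The 3 largest gains were in Zfp493, Zfp119b and Zfp580. Zfp493 and Zfp119b had 5.308 and 4.5 kb in depleted cells only. Zfp580 had 0 in female cells and its whole 2.186 kb in depleted and male cells. In female cells H3K27me3 touched 12.1% of the genes with a KRAB pattern and 14% of those without. The 11 touched genes lost from female to depleted cells (50% of 22) stand beside 20.5% of other genes, and 9 genes were gained. Between female and male cells, both Setdb1+/+, 9 of the 22 (40.9%) were absent from the male list, against 23.5% of other genes. The male list had 10 that the female list lacked. Among genes touched in female cells the median covered share was 14.9% for Zfp genes and 77.6% for other genes. H3K9me3 and H3K27me3 both touched 7 Zfp genes in female, 0 in depleted and 7 in male cells (4.02%, 0 and 4.02%), against 2.11%, 0.989% and 1.76% of other genes. Whether the peaks of these marks overlap within a gene was not examined.

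H3K9me2 touched 2 Zfp genes in female cells (1.15%) against 2.14% of other genes, 0 in depleted cells (upper limit of the interval 2.1%) against 1.23%, and 5 in male cells (2.87%) against 1.87%. Zfp936 had 12.109 kb covered in female and male cells, and Zfp97 had 23.586 kb in male cells only. Only 39.4% and 1.96% of the sampled words of these genes are single copy.

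A Setdb1 peak lay within 10 kb of 4 Zfp genes in female cells (2.3%, interval 0.63 to 5.78) against 2.64% of other genes, of 2 in depleted cells (1.15%, 0.14 to 4.09) against 0.935%, and of 26 in male cells (14.9%, 10.0 to 21.1) against 6.63%. In female and depleted cells the share was thus near that of other genes. The female genes were Zfp40, Zfp763, Zfp57 and Zfp383, and the depleted genes Zfp598 and Zfp763. Zfp57, a KRAB protein that maintains methylation at imprinted loci, had a female peak in an untranslated region with a fold enrichment of 3.5 and a −log10 q of 0, and no histone peak in any list. At a q-value below 0.05 there remained 1 of the 4 peaks near Zfp genes in female, 1 of 2 in depleted and 14 of 27 in male cells. The female peak that passed, beside Zfp40, and the depleted peak that passed, near Zfp598, lie in tetranucleotide repeats whose summit word occurs 210542 and 211805 times in the genome. They were also the only sites shared with the male list, so no site with a single-copy summit was found in 2 lists.

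In male cells 19 of the 27 peaks had a single-copy summit word, 10 lay in coding exons, 6 touched an untranslated region, 7 were intronic and 12 lay within male H3K9me3 peaks. The same counts for the other 443 male peaks of these chromosomes are not given here, so none can be called particular to Zfp genes. The peak in the coding exon of Zfp850 had a fold enrichment of 6.08 and a −log10 q of 3.88, the intronic peak of Zfp110 had 5.93 and 3.67, and those of Zfp30 and Zfp976 had 4.86 and 1.81, and 4.5 and 1.47. Their pileups were 9, 9, 7 and 8 reads, so each rests on few fragments. The strongest outside simple repeats was in the coding exon of Zfp97, with 7.5 and 7.32, where the summit word occurs 413 times. The peaks of Zfp97, Zfp942, Zfp976 and Zfp110 lay within male H3K9me3 and those of Zfp850, Zfp30 and Zfp787 did not.

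Zfp568, a KRAB protein that silences a placental Igf2 transcript, Zfp143, a transcription factor of promoters, Zfp36, an RNA-binding protein that promotes mRNA decay, and Zfp296 had no histone or Setdb1 peak in any list. Zfp318 had 1.27 kb of H3K27me3 in depleted and male cells. In all, 102 of the 174 genes (58.6%) were touched by none of the 3 histone marks, against 59.2% of other genes. On the other chromosomes 21.5%, 14.8% and 17.5% of 223 Zfp genes were touched by H3K9me3 in female, depleted and male cells, and 5.83%, 1.79% and 18.4% had a Setdb1 peak within 10 kb. H3K27me3 touched 26.9%, 26% and 21.5% of them and H3K9me2 5.38%, 7.17% and 5.38%, both above the shares of Zfp genes on chromosomes 7, 13 and 17. The shares of other genes on those chromosomes are not given here, so a difference between chromosomes cannot be told apart from one between Zfp genes. Of 19 corepressor genes, including Trim28 and Setdb1, 0 were touched by H3K9me3 in any list. The shares of other genes on chromosomes 7, 13 and 17 were 9.35%, 6.95% and 7.99% in female, depleted and male cells.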

How the data were processed

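The authors sequenced 43 libraries in 18 groups, aligned them with Bowtie2 to SNP-masked mm10 (base calls from CASAVA 1.4, per the labels) and pooled the libraries of a group before calling peaks. Histone peaks were called with Seqmonk against H3, in steps of 5 kb with a smallest width of 10 kb; the numeric columns the authors deposited there are log2 H3 reads, not the mark's own signal. Setdb1 peaks were called with MACS2 2.1.0.20140616 at p 0.001 against whole-cell extract after down-sampling, and per the file headers hold pileup signal, fold enrichment (a ratio), −log10 p-values and −log10 q-values. After duplicate removal the smaller of sample and control was 18134299 reads in female, 14405821 in depleted and 12320583 in male cells.

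Bases of each GENCODE M21 gene body (annotated start to end) under the union of each list were counted with pandas 2.3.3 and numpy 2.4.6 in Python 3.11.15, as were Setdb1 peaks within 10 kb; the counting was tested on simulated intervals. Copies of 32-base words, sampled each 250 bases, were counted over 21 chromosomes of GRCm38. C2H2 and KRAB patterns were searched in the translated coding sequence. Samples were grouped by their labels. With 1 pooled list a group, no test was made, and exact intervals came from scipy 1.17.1. Most named genes were drawn from those with a Setdb1 peak within 10 kb, the 3 most covered genes of each list, the 3 largest losses and gains of each mark, genes of known role and the ends of clusters. Not every gene under these rules is named. The genes, lists and rules were chosen with earlier results of these data known. A neural marker of the cell type check is not reported here.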

Additional observations from a re-analysis of the deposited data

How the results depend on the processing

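No paired analysis was possible because each group has 1 pooled list, and for the same reason no replicate could be left out. Of the 96 comparisons with an alternative, 67 stayed within the counting interval of the reported percent or within 1.5 times the reported difference.
With at least 50% of the body covered, the percent of Zfp genes became 15.5 in female and 5.17 in depleted cells for H3K9me3, 0.0 in female and 0.575 in male cells for H3K9me2, and 1.72, 1.72 and 2.3 in female, depleted and male cells for H3K27me3. With 5 kb either side of the start in place of the body, H3K9me3 touched 15.5% in female and 6.32% in depleted cells, against 7.21% and 5.61% of other genes. With genes of at least 90% single-copy words only, it was 7.23%, 2.41% and 4.82% for H3K9me3 in female, depleted and male cells, and 0.0% for H3K9me2 in female and male cells. Differences of covered bases, depleted minus female, were -7.0 percentage points for H3K9me3 (-3.31 in single-copy genes, -2.02 on chromosome 7, -14.2 on chromosome 17), -0.325 for H3K9me2 (0.0 in single-copy genes, -0.684 on chromosome 7, 0.0 on chromosome 13, -0.0143 on chromosome 17) and -1.26 for H3K27me3 (-2.02 on chromosome 7, and reversed to 0.0289 on chromosome 17). For Setdb1, peaks within 50 kb were found for 6.9% of Zfp genes in female and 27% in male cells, against 6.79% and 14.5% of other genes. A q-value under 0.05 left 0.575% in female and 8.05% in male cells, against 0.187% and 2.14%. A −log10 p of at least 5 left 9.77% in male cells against 3.71%, and single-copy summits left 0.0% in depleted cells against 0.508%. Where a setting moved a value, the cause was not tested. RefSeq proteins were not used here, so the planned choice of genes by fingers in them was not run; the translated GENCODE coding sequence took its place, chosen after seeing the data. Leaving out Zfp935 or Zfp536, also chosen after seeing the data, was run for the depleted minus female differences, which kept their direction, between -7.61 and -6.66 percentage points for H3K9me3 and between -1.3 and -1.09 for H3K27me3.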
